A study of Mus musculus with 10 samples.

Results

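H2AK119ub was mapped by ChIP-seq in mesoderm, and 1238 of the 4922 WT H2AK119ub peaks were overlapped at no base by a WT H3K27me3 peak. These 1238 regions, called the off peaks here, were chosen by the positions of the peaks in the WT H2AK119ub and WT H3K27me3 lists, and they are described against the other 3684 WT H2AK119ub peaks, the on peaks. The whole series held 70826 peaks in 8 lists. The cells were mCherry+ cells sorted from day 4 embryoid bodies (EBs), aggregates in which mouse embryonic stem (ES) cells differentiate. WT cells were Scl:mCherry, a single-cell clone of the J1 ES line with the reporter inserted on one allele of Scl (Tal1), and Delta cells were Scl d/d:mCherry, made from that line by deleting on both alleles the part of Scl that encodes its DNA-binding helix-loop-helix domain. Both genotypes thus carried the reporter, and the sort kept cells that transcribe Scl. The labelled strain was C57Bl/6 X Sv129 for both H2AK119ub libraries, and the last number of that label differed from library to library among the rest. H2AK119ub, H3K27me3, H3K4me3 and H3K27ac each had 1 library per genotype, so no replicate error could be measured and no test between genotypes was run. Shares are given with 95% Wilson intervals and differences of shares with 95% Newcombe intervals, which cover counting error only and treat peaks as independent, although neighbouring peaks share their surroundings.

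Polycomb repressive complex 1 (PRC1) places a single ubiquitin on a lysine near the end of histone H2A through its RING1 subunits, and PRC2 methylates lysine 27 of histone H3. The CBX proteins of canonical PRC1 bind H3K27me3, whereas variant PRC1 complexes with RYBP or YAF2 are recruited without it, and PRC2 with JARID2 or AEBP2 binds H2AK119ub in turn. Both marks are best known at the CpG islands of developmental regulators that are silent in a given cell type. H3K4me3 marks promoters with CpG islands and those in use, and H3K27ac marks active promoters and enhancers.

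Sequences of 6 peaks are shown as examples of what the H2AK119ub regions look like. The off peaks printed are 3 with the highest fold enrichment of those up to 300 bp, and another at the Ubtf promoter that also lay under H3K27ac. The on peaks printed are those of highest fold enrichment that fit the same length and held a CpG island window, defined as 200 bp with over 50% GC and a ratio of observed to expected CpG over 0.6. Because the on peaks were picked for such a window, their CpG counts are no measure of the difference between the groups, which is given over all peaks further on. All are on the plus strand of mm9, 5′ to 3′, with each CpG in capitals. The off peaks in a coding exon of Triobp (chr15:78796761-78796962), which encodes an actin-binding protein, in a coding exon of Ccnd1 (chr7:152119831-152120024), the gene of cyclin D1, and 24821 bp from the start of Fam92b (chr8:122726190-122726403) held 9, 5 and 2 CpGs, and the one in an intron of Ubtf, 398 bp from a TSS (chr11:102179583-102179826), the gene of the RNA polymerase I factor UBF, held 23. The on peaks near Phlda2 (chr7:150688672-150688937), an imprinted growth regulator, and at Wt1 (chr2:104973477-104973775), a transcription factor of kidney and mesothelium, held 18 and 17.
Triobp, off: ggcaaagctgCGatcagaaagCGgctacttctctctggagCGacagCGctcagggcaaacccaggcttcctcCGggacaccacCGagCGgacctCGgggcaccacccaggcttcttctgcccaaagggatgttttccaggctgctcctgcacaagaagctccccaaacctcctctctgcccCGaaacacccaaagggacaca
Ccnd1, off: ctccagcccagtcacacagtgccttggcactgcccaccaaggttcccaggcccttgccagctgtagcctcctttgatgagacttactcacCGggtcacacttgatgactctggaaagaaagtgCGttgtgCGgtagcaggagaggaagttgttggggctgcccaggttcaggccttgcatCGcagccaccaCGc
Fam92b, off: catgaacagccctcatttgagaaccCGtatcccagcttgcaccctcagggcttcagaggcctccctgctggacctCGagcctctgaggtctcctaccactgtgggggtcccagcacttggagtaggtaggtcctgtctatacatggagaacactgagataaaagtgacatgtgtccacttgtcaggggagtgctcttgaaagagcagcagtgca
Ubtf, off: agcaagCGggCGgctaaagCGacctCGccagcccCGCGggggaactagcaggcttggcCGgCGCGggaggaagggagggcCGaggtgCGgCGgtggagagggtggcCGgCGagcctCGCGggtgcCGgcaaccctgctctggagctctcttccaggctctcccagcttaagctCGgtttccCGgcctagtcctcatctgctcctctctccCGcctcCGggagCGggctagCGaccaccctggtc
Phlda2, on: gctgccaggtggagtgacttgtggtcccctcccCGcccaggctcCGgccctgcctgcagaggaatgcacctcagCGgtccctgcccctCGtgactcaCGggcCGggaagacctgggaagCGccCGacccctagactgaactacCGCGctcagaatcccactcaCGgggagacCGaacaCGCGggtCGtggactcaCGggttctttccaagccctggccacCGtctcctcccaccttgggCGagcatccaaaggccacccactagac
Wt1, on: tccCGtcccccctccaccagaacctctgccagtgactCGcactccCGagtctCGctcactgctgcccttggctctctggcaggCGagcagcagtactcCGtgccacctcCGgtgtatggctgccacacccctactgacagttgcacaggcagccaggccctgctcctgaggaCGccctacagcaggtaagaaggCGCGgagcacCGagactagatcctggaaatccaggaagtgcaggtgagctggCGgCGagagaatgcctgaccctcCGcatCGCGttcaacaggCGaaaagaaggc

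The off peaks were shorter and weaker than the on peaks. Their median length was 565.5 bp with quartiles of 348 and 811 bp, against 809.5 bp with quartiles of 447 and 1464 bp on H3K27me3. The fold enrichment over input that MACS2 wrote for each peak had a median of 3.55 off and 3.65 on H3K27me3, and the median −log10 q was 1.71 against 1.93. A −log10 q of 2 was reached by 240 off peaks (19.4%) and by 1567 on peaks (42.5%), and a −log10 q of 3 by 10 (0.808%) and 89 (2.42%). These are measures of the list that chose the members and are given as a description. The longest off peak, 3703 bp with a fold enrichment of 3.97, spanned an annotated transcript start of Slc4a3, an anion exchanger gene. It was at chr1:75543780-75547482 and lay 382 bp from H3K27me3. The second longest, 3616 bp, spanned a transcript start inside Speg, downstream of the start of the gene, which encodes a kinase of striated muscle. It was partly covered by H3K4me3 (1278 bp) and by Delta H2AK119ub (575 bp). The others of the 5 longest lay 76522 bp from the start of Gse1, at G430095P16Rik within Nfix, a transcription factor gene, and in an intron of Gas8, a gene of the ciliary dynein regulatory complex. By fold enrichment Triobp led with 4.74, followed by Ybx2, a germ cell RNA-binding protein gene, with 4.50, an intergenic peak 35248 bp from Gm22 with 4.46, Ccnd1 with 4.43 and the peak near Fam92b with 4.41.

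At the edge of the rule the groups met. Off peaks at Bai2 and 4732415M23Rik touched an H3K27me3 peak with a gap of 0 bp, and those at Ephx1, Tekt4 and 1190005I06Rik lay 5, 6 and 9 bp away. Just outside, on peaks near Mvd and Hoxc4 and those near Tcf20, at Sema3f and at Grb7 were overlapped by only 2, 5, 13, 14 and 15 bp. The off peaks were not far from H3K27me3 as a group. Their median distance to the nearest WT H3K27me3 peak was 6663 bp (95% interval of the median 5750 to 7768), with 188 (15.2%, 13.3 to 17.3%) within 1000 bp, 543 (43.9%, 41.1 to 46.6%) within 5000 bp, 711 (57.4%, 54.7 to 60.2%) within 10000 bp and 1201 (97.0%) within 100000 bp. For scale, 7922 WT H3K4me3 peaks off H3K27me3 had a median distance of 45416 bp and 17.5% within 10000 bp, and 2687 WT H3K27ac peaks off H3K27me3 a median of 47952 bp and 16.4%. The H3K27me3 peak nearest to an off peak had a median length of 1871 bp and a median fold enrichment of 3.75, against 1304 bp and 3.71 over the whole WT H3K27me3 list and 7508 bp and 7.08 for the H3K27me3 peaks at the on peaks. The values for off and on peaks count 1 H3K27me3 peak per H2AK119ub peak. A long H3K27me3 peak that holds several on peaks thus counts more than once, unlike in the whole list. The farthest off peak lay 1043817 bp from H3K27me3, between genes 226542 bp from the start of Tprg, with a fold enrichment of 3.59 and a −log10 q of 1.44. The next were in an intron of Ralgps2 (372245 bp), 72901 bp from the start of Rybp (346051 bp), a gene of variant PRC1, and in introns of Wwox (280435 bp) and Pde11a (229171 bp). None of these 5 had Delta H2AK119ub.

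**Figure D1:**
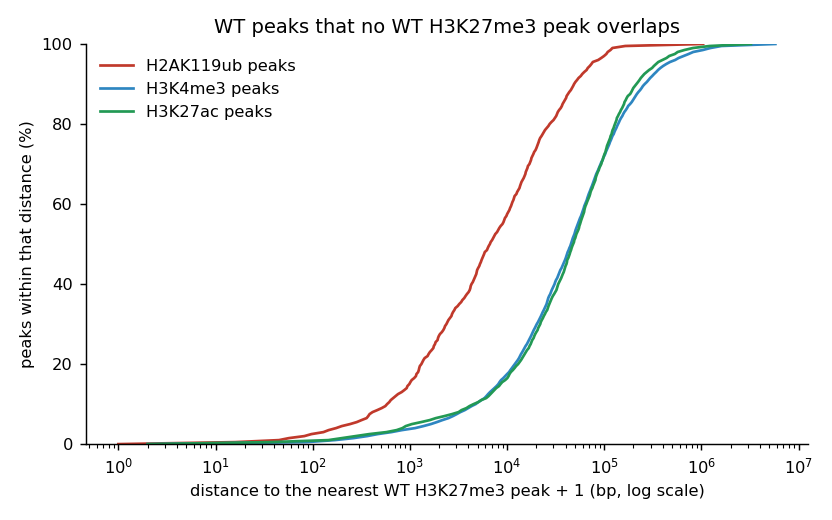
Cumulative share of WT peaks (y axis, %) against the distance to the nearest WT H3K27me3 peak plus 1 (x axis, bp, log scale), for H2AK119ub, H3K4me3 and H3K27ac peaks that no H3K27me3 peak overlaps. The H2AK119ub curve lies to the left, with a median of 6663 bp against 45416 bp for H3K4me3 and 47952 bp for H3K27ac.

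Off peaks lay less often at promoters than on peaks did. Within 2500 bp of the start (TSS) of a coding transcript lay 406 off peaks (32.8%, 30.2 to 35.5%) and 2220 on peaks (60.3%, 58.7 to 61.8%), a difference of -27.5 points (-30.5 to -24.4). Over all WT H2AK119ub peaks the share was 53.4%. In gene bodies away from a TSS lay 428 off peaks (34.6%, 32.0 to 37.3%) and 676 on peaks (18.3%), 16.2 points more (13.3 to 19.2), with 22.4% over all. The remaining 404 off peaks (32.6%, 30.1 to 35.3%) were intergenic, against 788 on peaks (21.4%), a difference of 11.2 points (8.35 to 14.2). Without chromosomes 1 and 8 this intergenic surplus was smaller, as the promoter difference was -21.3 points and the gene body difference 16.7. Gm20388, a long annotation of chromosome 8, was left out here. With it kept as a gene the surplus was smaller still, with differences of -27.5 points at promoters and 25.1 in gene bodies. Only 51 off peaks (4.12%) reached a TSS itself, against 475 on peaks (12.9%). The median distance to a coding TSS was 5597 bp off and 1361 bp on H3K27me3. For off peaks on chromosome 8 it was 12753 bp, and without chromosomes 1 and 8 it was 4334.5 bp off and 1362 bp on. By the annotation at the midpoint the groups were close: 499 off peaks (40.3%) were centred in an intron, 150 (12.1%) in a coding exon and 84 (6.79%) in a UTR, against 41.4%, 13.3% and 6.35% of on peaks, with the interval of each difference including 0. Within the genes they overlapped, gene body off peaks had their median position at 66.65% of the gene from its start, and 214 of 428 (50%) lay in the last part of the gene when it was cut in 3 equal parts, against 315 of 676 on peaks (46.6%).

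**Figure D2:**
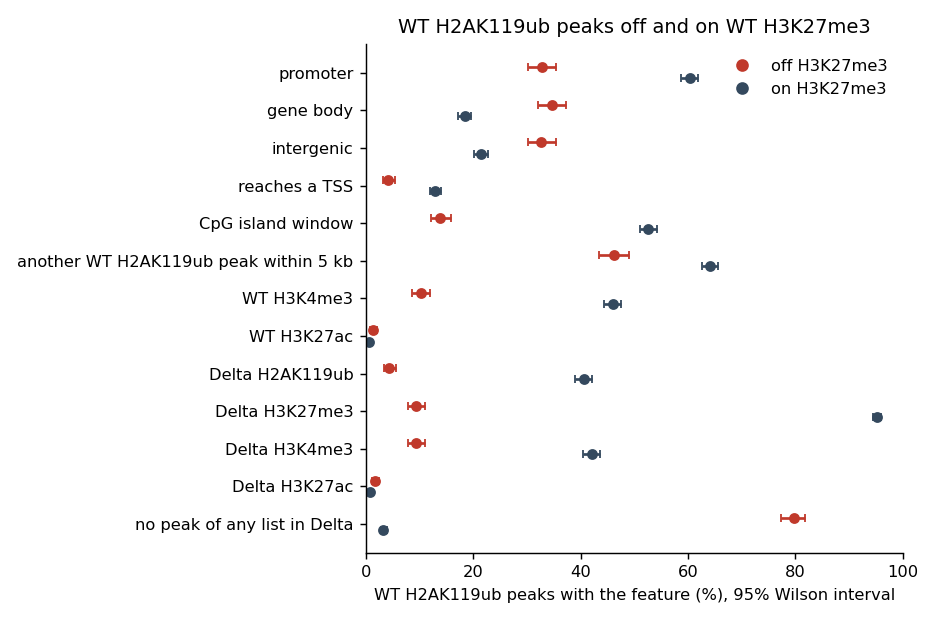
Share of WT H2AK119ub peaks (x axis, %) with each feature (y axis), for the 1238 peaks off and the 3684 on H3K27me3, with 95% Wilson intervals as bars. Gene bodies and intergenic sequence held a larger share of off peaks, and promoters, CpG island windows, H3K4me3 and the Delta marks other than H3K27ac a smaller one.

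Most gene body off peaks lay in genes with H3K27me3 at a TSS. Of the 428 peaks, 318 (74.3%, 70.0 to 78.2%) lay in a gene with a WT H3K27me3 peak at its TSS, 367 (85.7%) in one with H3K4me3 there, and 223 (52.1%) in one with an on peak there. For the 676 gene body on peaks these shares were 88.9%, 84.5% and 66.9%. They count peaks and not genes, so a gene that holds several peaks counts more than once. Over all 22358 coding genes with a TSS, 34.8% had H3K27me3 within 2500 bp, 60.6% H3K4me3 and 19.9% H3K27ac, and H3K27me3 was at 68 of 79 cytosolic ribosomal protein genes, so the list also covers promoters that every cell uses. In all 616 coding genes were overlapped by an off peak, 492 of them by 1 and 33 by 3 or more, and 238 also by an on peak. Speg led with 7 off peaks over 57.0 kb, of 557 to 3616 bp, beside 3 on peaks. Agap3, an ADP-ribosylation factor regulator gene, Cacna1a, a neuronal calcium channel gene, and Tns1, which encodes the focal adhesion protein tensin, held 6 each beside 1, 3 and 6 on peaks. Zfpm1, whose product FOG1 is a cofactor of GATA factors in blood, held 5 beside 1 on peak, as many as Unc13a, Gse1 and Lemd1 but with the largest summed length, 6205 bp. The TSSs of the first 5 genes all carried H3K4me3 and H3K27me3, and that of Zfpm1 also H3K27ac.

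At TSSs, 396 coding genes (1.77%) had an off peak within 2500 bp and 1754 (7.85%) an on peak, 90 of them both. Of the 306 genes with an off peak alone, 250 (81.7%, 77.0 to 85.6%) had H3K4me3 and 103 (33.7%, 28.6 to 39.1%) had H3K27me3 in the same window, close to the 34.8% of all coding genes. H3K4me3 without H3K27me3 was found at 160 of them (52.3%, 46.7 to 57.8%), against 28.3% of all coding genes and 2 of the 1754 genes with an on peak. H3K27ac was at 54 (17.6%, 13.8 to 22.3%), against 19.9% of all coding genes and 67 (3.82%) of those with an on peak. The share with H3K27me3 in this comparison follows partly from the rule, which keeps H3K27me3 off the peak itself. For genes with an on peak the rule nearly fixed it, as 1751 of 1754 had H3K27me3 in the window, and with it the 2 of 1754 above.

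The off peaks themselves rarely lay under an active mark. H3K4me3 overlapped 126 (10.2%, 8.61 to 12%) and 1693 on peaks (46.0%, 44.4 to 47.6%), a difference of -35.8 points (-38.0 to -33.4), with 37% over all WT H2AK119ub peaks. At promoters 103 of 406 off peaks (25.4%) had H3K4me3 against 56.8% of on peaks, in gene bodies 8 of 428 (1.87%) against 28.1%, and between genes 15 of 404 (3.71%) against 30.6%. The same order held in each class of length, from 8.82% off in peaks under 500 bp to 16.9% in those of 1000 bp and over. H3K27ac overlapped 15 off peaks (1.21%, 0.736 to 1.99%) and 22 on peaks (0.597%, 0.395 to 0.903%), with 0.752% over all and a difference of 0.614 points (0.0489 to 1.42). On chromosomes other than 1 and 8 that difference was 0.421 points (-0.0875 to 1.35), an interval that includes 0. All 22 on peaks under H3K27ac also had H3K4me3, whereas 7 of the 15 off peaks did and 8 had H3K27ac alone. Of the 5 with the highest fold enrichment, those at Src, a tyrosine kinase gene (chr2:157250207-157250842), and at 2410016O06Rik were at promoters with both marks. The other members of those 5 lay in introns with H3K27ac and no H3K4me3, in Zfpm1 (chr8:124846200-124846550, covered whole), in Sh3pxd2a, a podosome scaffold gene, and in Ddc, the DOPA decarboxylase gene, at 11867, 22820 and 52627 bp from H3K27me3. Of the 8 off peaks with H3K27ac alone, all but those in Sh3pxd2a and Ddc were on chromosome 8. Their overlap with H3K27ac ranged from 21 bp of a 1774 bp peak in Zfpm1 to whole peaks, and was 35 bp of 719 in Sh3pxd2a. Chosen after their values were seen, the peaks at Fzd7, a WNT receptor gene, and Papd5 also lay at promoters with both marks, 108153 and 69733 bp from H3K27me3, as the Src peak did at 133910 bp. At Fzd7 and Papd5, Delta H3K27me3 covered part of the same peak, over 608 and 441 bp. Delta H2AK119ub covered 1310 bp of the Fzd7 peak and none of the Papd5 peak.

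The groups differed in CpG content and little in GC content. The median GC content was 55.4% off and 54.9% on H3K27me3, but the median ratio of observed to expected CpG was 0.211 (quartiles 0.147 and 0.299) off and 0.376 (0.222 and 0.546) on. Windows of the same length 5 kb to either side of each peak had median ratios of 0.211 and 0.213, so the off peaks had the CpG ratio of their surroundings, with more GC (55.4% against 51.5%). A CpG island window was found in 171 off peaks (13.8%, 12 to 15.8%) and 1938 on peaks (52.6%, 51.0 to 54.2%), a difference of -38.8 points (-41.2 to -36.2), with 42.8% over all. Long peaks have more room for such a window, and within each class of length the difference kept its sign: 7.32% against 27.8% under 500 bp, 14.6% against 45.9% from 500 bp to below 1000 bp, and 31.4% against 76.7% from 1000 bp. At promoters 76 of 406 off peaks (18.7%) held one against 58.6% of on peaks. The peak of Fzd7 (179 CpGs in 2034 bp, ratio 0.84) and that of Papd5 (69 CpGs in 545 bp, ratio 0.93) were high, while the 5 peaks of highest fold enrichment ranged from 0.13 near Fam92b to 0.50 in Triobp.

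**Figure D3:**
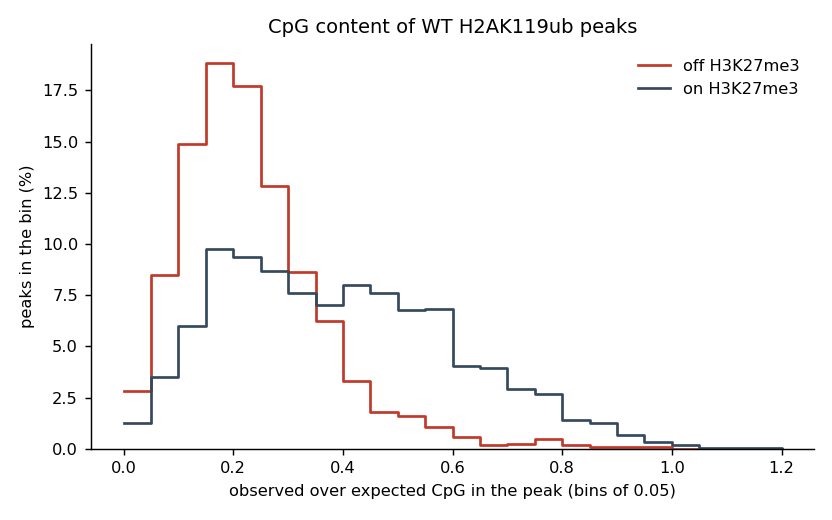
Share of WT H2AK119ub peaks (y axis, %) by the ratio of observed to expected CpG in the peak (x axis, bins of 0.05), off and on H3K27me3. The off peaks sit at low ratios with a median of 0.211, and the on peaks spread to higher ratios with a median of 0.376.

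Few off peaks were called again in Delta. A Delta H2AK119ub peak overlapped 54 of 1238 (4.36%, 3.36 to 5.65%) and 1494 of 3684 on peaks (40.6%, 39.0 to 42.1%), a difference of -36.2 points (-38.1 to -34.2), with 31.5% over all. The Delta list was the shorter one with 2388 peaks, and a peak that misses its threshold is not shown to be gone. Peaks of 1000 bp and over were found more often in Delta than shorter ones in both groups, and within each class the off peaks had the lower share. Under 500 bp the shares were 3% off and 20% on, from 500 bp to below 1000 bp 2.81% and 29.8%, and from 1000 bp 13.4% and 64.7%. At a −log10 q of 2 and over they were 8.33% and 54.4%. The 5 of highest fold enrichment among the 54 were at the start of Elmo3, a regulator of engulfment (fold enrichment 4.04), in Fcho1, an endocytic adaptor (3.97), in Pdk2, a pyruvate dehydrogenase kinase (3.80), 6610 bp from the TSS of Fgf8, a signalling factor of the primitive streak (3.78), and in Trmt1, a tRNA methyltransferase, within 2500 bp of the start of Lyl1 (3.74). At promoters 30 of 406 off peaks (7.39%) had Delta H2AK119ub, in gene bodies 15 of 428 (3.50%) and between genes 9 of 404 (2.23%).

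Delta H3K27me3 overlapped 115 off peaks (9.29%, 7.80 to 11.0%) and 3509 on peaks (95.2%), with 73.6% over all. Among off peaks within 5 kb of WT H3K27me3 the share was 94 of 543 (17.3%, 14.4 to 20.7%), and beyond 5 kb 21 of 695 (3.02%, 1.98 to 4.57%). Both Delta Polycomb marks were at 17 off peaks, H2AK119ub alone at 37 and H3K27me3 alone at 98. Delta H3K4me3 was at 114 (9.21%) against 126 with WT H3K4me3, and Delta H3K27ac at 20 (1.62%) against 15 with WT H3K27ac. No Delta peak of any of the 4 marks overlapped 986 off peaks (79.6%, 77.3 to 81.8%) and 3.23% of on peaks. The groups were split by WT H3K27me3, and Delta H3K27me3 alone covered 95.2% of on peaks. This contrast and that in Delta H3K27me3 thus follow in large part from the rule and are given as descriptions.

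**Figure D4:**
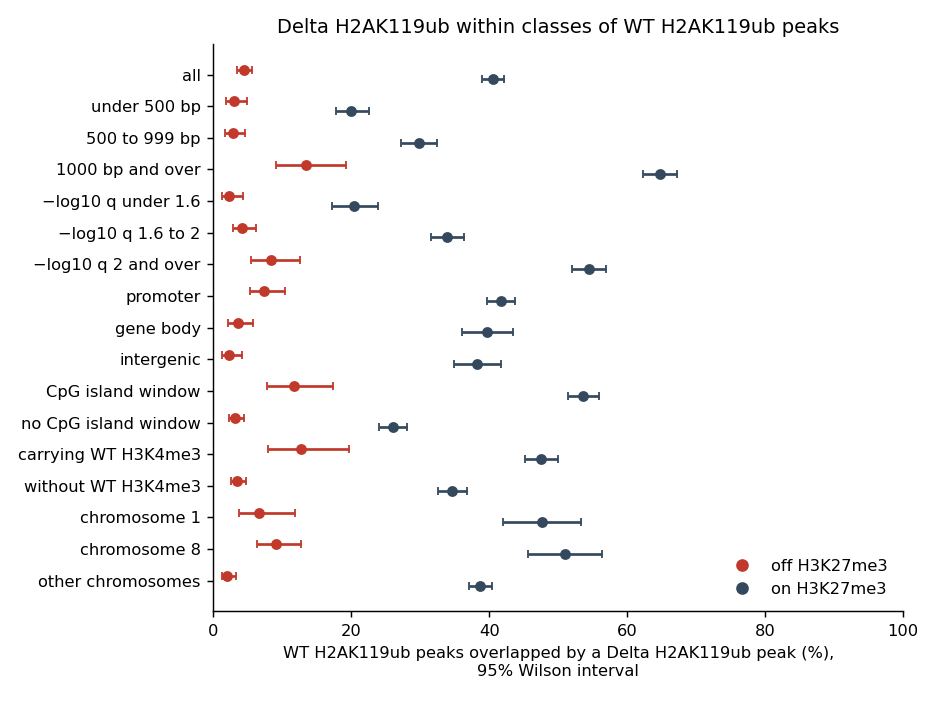
Share of WT H2AK119ub peaks overlapped by a Delta H2AK119ub peak (x axis, %) within classes of peaks (y axis), off and on H3K27me3, with 95% Wilson intervals as bars. In every class plotted the off peaks lie to the left, from 1.95% on other chromosomes to 13.4% at 1000 bp and over.

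Chromosomes 8 and 1 had the largest shares of H2AK119ub peaks off H3K27me3. On chromosome 8, 320 of 651 H2AK119ub peaks were off H3K27me3 (49.2%, 45.3 to 53.0%), and on chromosome 1, 150 of 446 (33.6%, 29.4 to 38.1%). On the other 17 chromosomes 768 of 3825 were (20.1%, 18.8 to 21.4%), with single chromosomes between 5.96% and 26.0%. Chromosome 8 thus held 25.8% of the off peaks and 8.98% of the on peaks, and chromosome 1 12.1% and 8.03%. Per megabase chromosome 8 led with 2.43 off peaks, followed by chromosome 11 with 1.08 and chromosome 19 with 0.815, both above chromosome 1 with 0.761. The background moved with this. The read count expected from input at each peak was worked back from its fold enrichment and p-value. At WT H2AK119ub peaks it was 1.42 times the level of the other autosomes on chromosome 8 and 1.37 times on chromosome 1. At WT H3K4me3 peaks it was 1.45 and 1.38 times, and at WT H3K27me3 peaks, which set the rule, 1.40 and 1.36 times. The other 17 chromosomes ranged from 0.951 to 1.04 in the H2AK119ub and H3K4me3 lists. The part of this background in the surplus of off peaks was not tested. The 54 peaks found again in Delta followed the same split, with 29 of 320 on chromosome 8 (9.06%, 6.38 to 12.7%), 10 of 150 on chromosome 1 (6.67%, 3.66 to 11.8%) and 15 of 768 elsewhere (1.95%, 1.19 to 3.20%). Without chromosomes 1 and 8 the off peaks at promoters rose to 299 of 768 (38.9%), still below the 60.3% of on peaks on the same chromosomes.

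**Figure D5:**
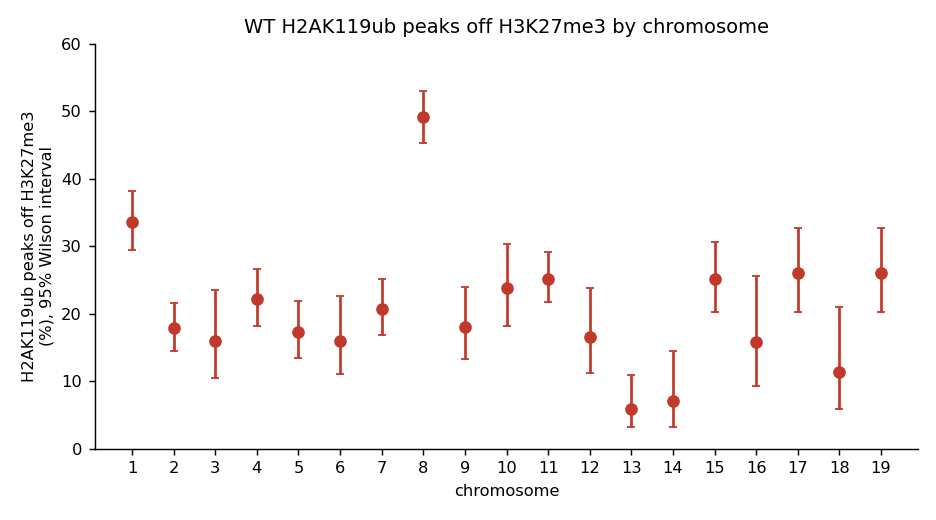
Share of WT H2AK119ub peaks off H3K27me3 (y axis, %) on each chromosome (x axis), with 95% Wilson intervals as bars. Chromosome 8 stands at 49.2% and chromosome 1 at 33.6%, and the others lie between 5.96% and 26.0%.

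Many off peaks came in runs. Joined over gaps of up to 10 kb, 735 off peaks stood alone and 503 fell into 192 clusters. Both of the largest held 11 peaks on chromosome 8. One (chr8:73274022-73315094) crossed Ifi30, Mast3, Mpv17l2, Pde4c, Pik3r2 and Rab3a, and 2 of its peaks had Delta H2AK119ub. The other (chr8:122930850-122979415) lay before Gse1 in a stretch with no coding gene other than the read-through annotation Gm20388, and held 1 such peak. A cluster of 8 (chr8:125217537-125247413) reached into Cbfa2t3, which encodes the corepressor ETO2, and none of its peaks had Delta H2AK119ub. By megabase the densest was chr8:123000001-124000000 with 52 off peaks and 16 on peaks. Outside chromosomes 1 and 8 the largest cluster was in Agap3 on chromosome 5, with 6 peaks over 14.8 kb. Another H2AK119ub peak of either group was within 5 kb of 571 off peaks (46.1%) and of 2362 on peaks (64.1%).

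The gene groups followed by name differed in how many of their genes had an off peak. None of 24 PRC1 and none of 11 PRC2 subunit genes had one at the TSS or in the gene, and 4 and 1 had an on peak at the TSS. Of 18 genes of the SCL complex and its corepressors found in the annotation, 3 had an off peak at the TSS (Lyl1, Cbfa2t3 and Gse1), 5 an on peak there, and Zfpm1 had off peaks in its body. All of these 4 genes are on chromosome 8, where off peaks were densest. Lyl1, the closest relative of Scl, had a peak of 269 bp covered by 263 bp of H3K4me3 and whole by Delta H2AK119ub. Cbfa2t3 had 4 peaks of 217 to 1697 bp at its TSS or in its body, 1 of them (719 bp) whole under H3K4me3, and none had Delta H2AK119ub. Gse1, whose product is found with histone deacetylase complexes, had 5 of 278 to 1513 bp, 3 with H3K4me3 and 1 with Delta H2AK119ub. Of 19 blood and endothelial genes, Runx1, the regulator of definitive blood, had a single intronic peak of 193 bp with a fold enrichment of 4.27, 108694 bp from H3K27me3. Notch1 had one of 615 bp before its start, and Dll4, a Notch ligand, one of 882 bp in a UTR that Delta H3K27me3 covered whole. Of 27 cardiac and paraxial genes, 21 had an on peak at the TSS, and Gata5 and Tcf15 had an off peak at the TSS or in the gene. The ribosomal protein genes had no H2AK119ub peak of either group at the TSS. These counts are descriptions, to be set beside all 22358 coding genes, of which 1.77% had an off peak at the TSS, 3.18% one at the TSS or in the gene, and 7.85% an on peak at the TSS.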

How the data were processed

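ChIP-seq libraries of 4 histone marks in WT and Delta cells, 1 per mark and genotype, were used. The authors mapped reads with Bowtie to mm9 and, for Drosophila chromatin added as a spike-in, to dm3, removed duplicates with SAMtools, and scaled tag densities by the spike-in, a step not stated for peak calls. The deposited broad peak lists, called by the authors with MACS2 2.0.10 against the input of the same genotype, give a fold enrichment (a ratio over input), −log10 p and q values, and a score that the authors' MACS2 run derived from the q value and that was not used further. They hold no read counts, and the library totals that the study gives were not used here. The 2 inputs were not analysed here. Members were the WT H2AK119ub peaks with under 1 bp of WT H3K27me3 overlap, and members and gene lists were chosen with earlier results of these data known. Peaks were annotated with GENCODE M1 and sequence from NCBIM37, the assembly of mm9, in Python 3.11.15 with pandas 2.3.3 and pysam 0.24.0. TSSs are those of coding transcripts. The interval of a median came from binomial order statistics. Gm20388, one annotated span over 72 other coding genes of chromosome 8, was left out of TSSs and gene bodies, a choice made after seeing the data. The overlap counts of 7 lists matched those from bedtools 2.31.1, with a largest difference of 0 peaks. Named peaks are the 5 longest, of highest fold enrichment, farthest from H3K27me3, and of highest fold enrichment with H3K27ac or Delta H2AK119ub, the 5 genes overlapped by most members, the members nearest to and the non-members least overlapped by H3K27me3, and the listed genes. Peak length, −log10 q, TSS distance, gene types, the H3K27me3 list and chromosomes were varied.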

Additional observations from a re-analysis of the deposited data

How the results depend on the processing

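Of 51 shares and medians under alternative settings, 26 stayed within the 95% interval of the value reported, and 2 of 6 numbers of off peaks stayed within 1.5 times the main number. In none of the 45 differences between off and on peaks did the sign change. The intergenic share was not among these differences. Peaks under 500 bp alone and peaks with a −log10 q under 1.6 alone were not among the settings, and in both the H3K27ac difference was reversed. It was -0.363 points (-1.22 to 0.795) under 500 bp and -0.772 points (-2.35 to 0.965) under a −log10 q of 1.6. Both intervals include 0. The off peaks numbered 705 when held to 500 bp and over, 240 when held to a −log10 q of 2 and over, 768 without chromosomes 1 and 8, and 695 with no H3K27me3 within 5000 bp. At that −log10 q, 37.5% were at promoters, 31.3% in gene bodies, 12.9% under H3K4me3, 8.33% under Delta H2AK119ub and 11.7% under Delta H3K27me3. Beyond 5000 bp from H3K27me3, 30.1% were at promoters, 2.88% under Delta H2AK119ub and 3.02% under Delta H3K27me3. Without chromosomes 1 and 8, 38.9% were at promoters and 1.95% under Delta H2AK119ub. With the midpoint rule, H3K4me3 covered 4.85%, H3K27ac 0.485%, Delta H2AK119ub 2.42% and Delta H3K27me3 6.06%. A TSS distance of 1000 bp gave 19.0% at promoters and 45.5% in gene bodies, all gene types 41.6% and 29.2%, and Gm20388 kept as a gene, a setting chosen after seeing the data, 43.9% in gene bodies. With H3K27me3 peaks of either genotype choosing the members, 3.29% were under Delta H2AK119ub, and Delta H3K27me3 is 0 by construction. With only H3K27me3 peaks whose −log10 q reached 3 choosing them, Delta H3K27me3 covered 16.5%. The median distance was in every setting that to any peak of the full WT H3K27me3 list. It was 18243 bp beyond 5000 bp, 8080 bp with peaks of either genotype choosing, 5417 bp without chromosomes 1 and 8, and 4651.5 bp with only the stronger H3K27me3 peaks choosing. In that last setting, members overlapped by a weaker H3K27me3 peak enter at 0 bp, which lowers the median by construction. The causes of these shifts were not tested beyond what each setting itself removes. No paired analysis was possible because each mark had 1 library per genotype. With no read counts, a peak absent from a list may lie just under its threshold, and no replicate shows how many of the 1238 peaks a second library would call.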

Other observations

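The Delta libraries, compared with each other, gave a far smaller group of the same kind. Of 2388 Delta H2AK119ub peaks, 127 (5.32%, 4.49 to 6.29%) were overlapped by no Delta H3K27me3 peak. They were shorter than the rest, with a median length of 486 bp against 791 bp and a median fold enrichment of 3.81 against 4.01. Chromosome 8 held 43 of them (33.9%, 26.2 to 42.5%) against 267 of the 2261 Delta peaks on H3K27me3 (11.8%, 10.5 to 13.2%), and chromosome 1 held 20 (15.7%, 10.4 to 23.1%) against 203 (8.98%, 7.87 to 10.2%). A WT H2AK119ub peak overlapped 51 of the 127 (40.2%), and in 35 (27.6%) that peak was one of the WT peaks off H3K27me3. WT H3K27me3 overlapped 27 (21.3%).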
